A study of Rattus norvegicus with 6 samples.

Results

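Genes of the mitotic spindle, the spindle checkpoint and chromosome segregation were followed in rat 3Y1 embryonic fibroblasts that carried the intracellular tail (cytoplasmic domain, MUC1-CD) of MUC1, a mucin of the cell membrane, and in the tumors these cells formed. The set holds 46 genes in 10 roles, chosen by name from knowledge of mitosis, with earlier results of these data known. Of these, 39 had a probe set annotated to that gene alone, out of 14213 genes measured, and all 39 were among the 10035 genes that passed the signal filter. Nek2, Ndc80, Kif4a, Tpx2, Cdc25c, Ncapg and Anln had no such probe set and were not analysed here.

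RNA was hybridized to Affymetrix arrays covering the rat genome, with 6 arrays in 3 groups of 2 that the labels call biological replicates. Vector in vitro is 3Y1 cells stably transfected with an empty vector and grown in serum-containing medium. MUC1-CD in vitro is 3Y1 cells stably transfected with a vector for MUC1-CD and grown the same way, and MUC1-CD in vivo is these cells grown as subcutaneous xenografts in the hindlimbs of female athymic mice. The submitters asked which genes go with transformation and tumor formation by MUC1-CD. Both lines come from the same parental fibroblasts, and the sources used here do not say whether each line is 1 clone, how old the mice were or which promoter drives MUC1-CD. Athymic mice lack mature T cells but keep their macrophages, vessels and muscle, so tumor RNA can hold mouse transcripts. Tumor RNA was also prepared differently, from frozen pieces kept in a preservative and passed over columns. No Vector tumors were among the arrays.

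Mitosis is driven by cyclin-dependent kinase 1 bound to B-type cyclins, and its genes are switched on together late in the cell cycle. The checkpoint holds the anaphase promoting complex (APC) inactive until every kinetochore is attached to the spindle. The APC then marks securin and cyclin B for destruction, separase cuts cohesin, and the central spindle directs cytokinesis. In growing fibroblasts, messenger levels of these genes follow the share of cells in late S phase, G2 and mitosis.

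Promoters of such genes are known for CCAAT boxes, bound by NF-Y, and for a cell-cycle homology region bound by MuvB complexes, which reads TTTGAA in many genes and, in others, TTTAAA. RefSeq promoter sequences (assembly GRCr8, 250 bases before to 50 after the annotated start) were at hand for 33 of the 39 genes. The 160 bases before the start are shown for the 4 members with the smallest p for MUC1-CD in vitro against Vector that had a promoter sequence: Mad2l1 (chr4:97236349-97236508, plus strand), Ccnb2 (chr8:79981659-79981818, minus strand), Pttg1 (chr10:28406327-28406486, minus strand) and Cenpf (chr13:103760887-103761046, minus strand). Capitals mark each CCAAT on either strand and likewise each TTTGAA and also each TTTAAA.
Mad2l1: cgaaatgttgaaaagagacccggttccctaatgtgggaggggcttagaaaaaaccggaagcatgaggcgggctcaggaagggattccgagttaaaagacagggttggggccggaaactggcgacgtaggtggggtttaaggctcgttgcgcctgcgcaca
Ccnb2: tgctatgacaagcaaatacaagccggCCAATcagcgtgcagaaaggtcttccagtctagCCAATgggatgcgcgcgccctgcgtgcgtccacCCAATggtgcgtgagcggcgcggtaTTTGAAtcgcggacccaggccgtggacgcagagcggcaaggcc
Pttg1: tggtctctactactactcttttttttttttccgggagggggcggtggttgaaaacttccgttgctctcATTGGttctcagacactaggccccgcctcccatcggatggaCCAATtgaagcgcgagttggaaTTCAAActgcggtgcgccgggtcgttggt
Cenpf: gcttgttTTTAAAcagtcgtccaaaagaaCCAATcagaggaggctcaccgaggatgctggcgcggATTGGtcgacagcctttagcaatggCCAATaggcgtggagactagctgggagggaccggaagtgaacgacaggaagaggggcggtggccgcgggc
The Ccnb2 sequence holds 3 CCAAT letters in the same orientation, at -134, -101 and -68 from the start, followed by TTTGAA at -43. In Pttg1 a CCAAT lies at -51 and another on the opposite strand at -92, with TTTGAA on the opposite strand at -29. Cenpf has 3 CCAAT matches and a TTTAAA at -153, and its TTTGAA lies at 3, after the start. Mad2l1 has none of these letters in the stretch shown, and its only match, a TTTGAA, lies at 28.

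Across the 33 promoters, 25 (75.8%) held CCAAT within the 300 bases on either strand, against 37.5% of all 33469 promoters in the table and 38.5% of the 8439 promoters of measured genes. The TTTGAA motif was in 23 (69.7%), against 18.3% and 11.4%, and TTTAAA in 12 (36.4%), against 13.6% and 8.58%. Both CCAAT and one of the other motifs were in 24 (72.7%), against 11.3% and 7.48%. The 59 CCAAT matches had a median position of -98 and none lay after the start, while the 28 TTTGAA matches had a median position of -44.5. Melk was the only member with none of the 3 motifs. These are matches of letters, not measured binding. Each motif was counted on both strands, TTTAAA reads the same on both, and matches of different motifs can share letters.

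The Vector arrays were the less alike pair and differed from the rest in RNA quality. The standard deviation of the difference between replicates over all probe sets was 0.62 log2 for Vector, 0.26 for MUC1-CD in vitro and 0.28 for MUC1-CD in vivo, and over the 39 mitotic genes it was 0.50, 0.18 and 0.18. The ratio of 3' to 5' control probe sets for Gapdh was 11.5 and 17.8 on the Vector arrays and 1.11 to 1.18 on the other 4. For beta-actin it was 4.15 and 41.7 on the Vector arrays and 2.97 to 3.37 on the others. RNA quality and the Vector group therefore cannot be told apart in any comparison with Vector. Fibroblast markers were present in all groups, with a summed signal of 113274 to 115188 in Vector, 76427 to 77107 in MUC1-CD in vitro and 116133 to 120902 in tumors over 12 genes.

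The mitotic genes were higher in MUC1-CD cells than in Vector cells in culture. By limma, with Benjamini-Hochberg adjusted p under 0.05, 33 of 39 rose, none fell and 6 were not called, while of all 10035 genes tested 21.2% were called higher and 24.9% lower (at an unadjusted p under 0.05, 36 were higher and 0 lower). The median log2 change of the 39 genes was 1.22, from 0.01 for Racgap1 to 2.44 for Cenpe, against -0.04 over all genes. Of the 33, 27 passed in every fit that left out 1 array. All 39 estimates were above 0, and for 38 both MUC1-CD arrays lay above both Vector arrays, which held for 33.9% of all genes. Changes here are differences of log2(signal + 16) with limma's standard error (SE), a scale that understates changes at low signal. A larger share of cells in mitosis and more RNA per cell cannot be told apart in bulk RNA.

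In tumors the mitotic genes were lower than in the same cells in culture. Of 39, 22 fell, none rose and 17 were not called, while 8.97% of all genes were called lower and 9.83% higher (at an unadjusted p under 0.05, 29 were lower and 0 higher). The median log2 change was -0.65, from -1.58 for Cenpf to 0.15 for Foxm1, against 0.03 over all genes, and 37 estimates were below 0. Both tumor arrays lay below both culture arrays for 34 members and for 35.0% of all genes. The calls used 1 estimate of the spread shared with the Vector arrays, which were the less alike pair. With only tumors and MUC1-CD culture in the fit, 2268 of all genes were called lower and 2524 higher, instead of 900 and 986. Most of the 22 calls were lost when any 1 MUC1-CD array, of culture or tumors, was left out of the shared fit, as were most calls over all genes. At least 36 of 39 estimates stayed below 0 in every fit that left out 1 array.

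Host cell markers moved with this second comparison. Tested macrophage markers were called higher in tumors than in MUC1-CD culture for 8 of 11, endothelial for 4 of 5, skeletal muscle for 9 of 10 and lymphoid for 1 of 1. Of all genes, 9.83% were called higher in this comparison. The summed signal of 15 macrophage genes was 1090.4 to 1229 in Vector, 3305 to 3501 in MUC1-CD culture and 7859.9 to 7865 in tumors. Cd14 was the highest of them in each group (means 528.7, 2939.6 and 3268), and made up most of the sum in MUC1-CD culture. For 10 endothelial genes the sum was 503 to 532, 577 to 582 and 2883 to 2898, with Aqp1 highest in tumors (mean 1657). For 14 muscle genes it was 10319 to 10833, mostly Myh1 (mean 10038), then 3073 to 3139 and 13502 to 14532, and for 12 lymphoid genes 305 to 395, 262 to 346 and 694 to 825. All 4 sums were highest in tumors. No marker was at 0 in any group. In MUC1-CD culture the macrophage markers Aif1, Coro1a, C1qc and Itgam were below a signal of 16 on both arrays, as were 2 endothelial, 7 muscle and 4 lymphoid markers. In tumors the endothelial markers Kdr and Vwf and the lymphoid marker Cd4 were below 16 on both arrays, and no macrophage or muscle marker was. The lowest change of a tested endothelial marker in tumors against culture was -0.59, without a call. The part of host cells in the lower signal of mitotic genes in tumors was not tested.

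Tumors still stood above Vector for many members. Against Vector, 19 rose, 3 fell (Espl1, Ect2 and Racgap1) and 17 were not called, beside 24.8% of all genes called higher and 26.6% lower. The median log2 change was 0.49, from -0.53 to 2.06, against -0.02 over all genes, and both tumor arrays lay above both Vector arrays for 30 members and for 37.0% of all genes. The 3 comparisons share their arrays, so their values are given side by side and not as independent evidence. Dividing each array by its median signal instead of keeping the deposited scale left 7 members higher and 10 lower than Vector with a median of -0.04. Of all 10035 genes 1225 were then called higher and 5408 lower, and their median moved to -0.60. Relative to all genes the members' median was 0.51 on the deposited scale and 0.55 on the median scale. With the median scale, 25.0% of all calls were higher for MUC1-CD in vitro against Vector, 22.7% for tumors against culture and 18.5% for tumors against Vector, compared with 45.9%, 52.3% and 48.2% on the deposited scale. The number of members called higher in tumors than in Vector fell when 1 tumor array was left out and grew when 1 Vector array was. The number over all genes moved the same way. Calls above Vector were kept in every fit that left out 1 array by 11 members, Mad2l1, Birc5, Cenpe, Prc1, Ccna2, Ccnb2, Cdk1, Cks2, Ube2c, Pttg1 and Smc4. With the median scale, Cenpe, Ccna2, Cdk1, Cks2 and Pttg1 of these 11 were no longer called, and 6 (Mad2l1, Birc5, Prc1, Ccnb2, Ube2c and Smc4) kept their call under every alternative tried. Bub1, Ttk, Plk1, Aurka, Aurkb, Cdc20, Ncaph and Foxm1 lost theirs without at least 1 tumor or MUC1-CD culture array, as did the falls of Espl1, Ect2 and Racgap1.

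**Figure D1:**
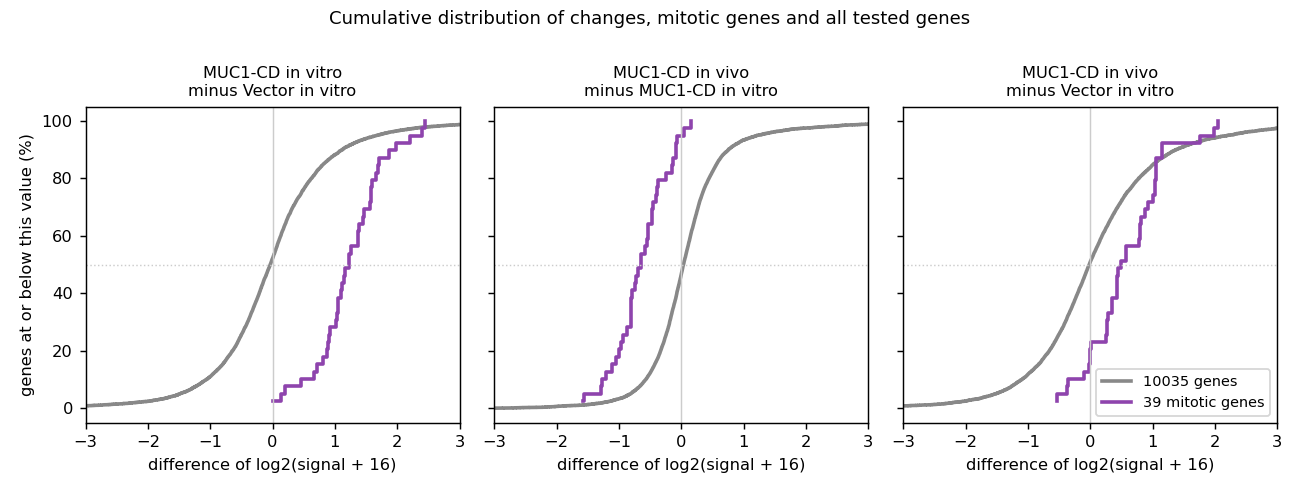
Cumulative share of genes (vertical axis, percent) at or below each difference of log2(signal + 16) (horizontal axis) for the 39 mitotic genes (purple) and all 10035 tested genes (grey), 1 panel per comparison. The curve of the mitotic set lies to the right of the curve of all genes for MUC1-CD in vitro against Vector (medians 1.22 and -0.04), to the left in tumors against MUC1-CD in vitro (medians -0.65 and 0.03), and mostly to the right in tumors against Vector (medians 0.49 and -0.02).

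Combining the 3 tests on the chosen probe sets gave 8 patterns. Higher in culture, lower again in tumors and still above Vector were 8 members: Bub1, Aurka, Cenpe, Prc1, Ccnb2, Cdk1, Cdc20 and Pttg1. Higher in culture, lower in tumors and not called against Vector were 11: Bub1b, Cenpf, Nuf2, Kif11, Kif20a, Kif23, Kif2c, Hmmr, Ccnb1, Top2a and Mki67. Higher in both settings than in Vector, with no call between culture and tumors, were 10: Mad2l1, Ttk, Plk1, Aurkb, Birc5, Ccna2, Cks2, Ube2c, Smc4 and Ncaph. The remaining 10 were Cdca8, Incenp and Smc2 (higher in culture only by call), Ect2 (higher, then lower than both), Espl1 and Racgap1 (lower in tumors than both), Foxm1 (higher in tumors than Vector) and Bub3, Cenpa and Melk (no call). A missed call does not show that levels were alike, and the patterns depended on the probe set. Further probe sets of Kif11, Kif23, Kif2c, Ccnb1, Top2a and Incenp were called above Vector in tumors, where the chosen ones were not. A further Hmmr probe set was not called against Vector either, and a further Smc4 probe set was not called above Vector, unlike the chosen Smc4 probe set.

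**Figure D2:**
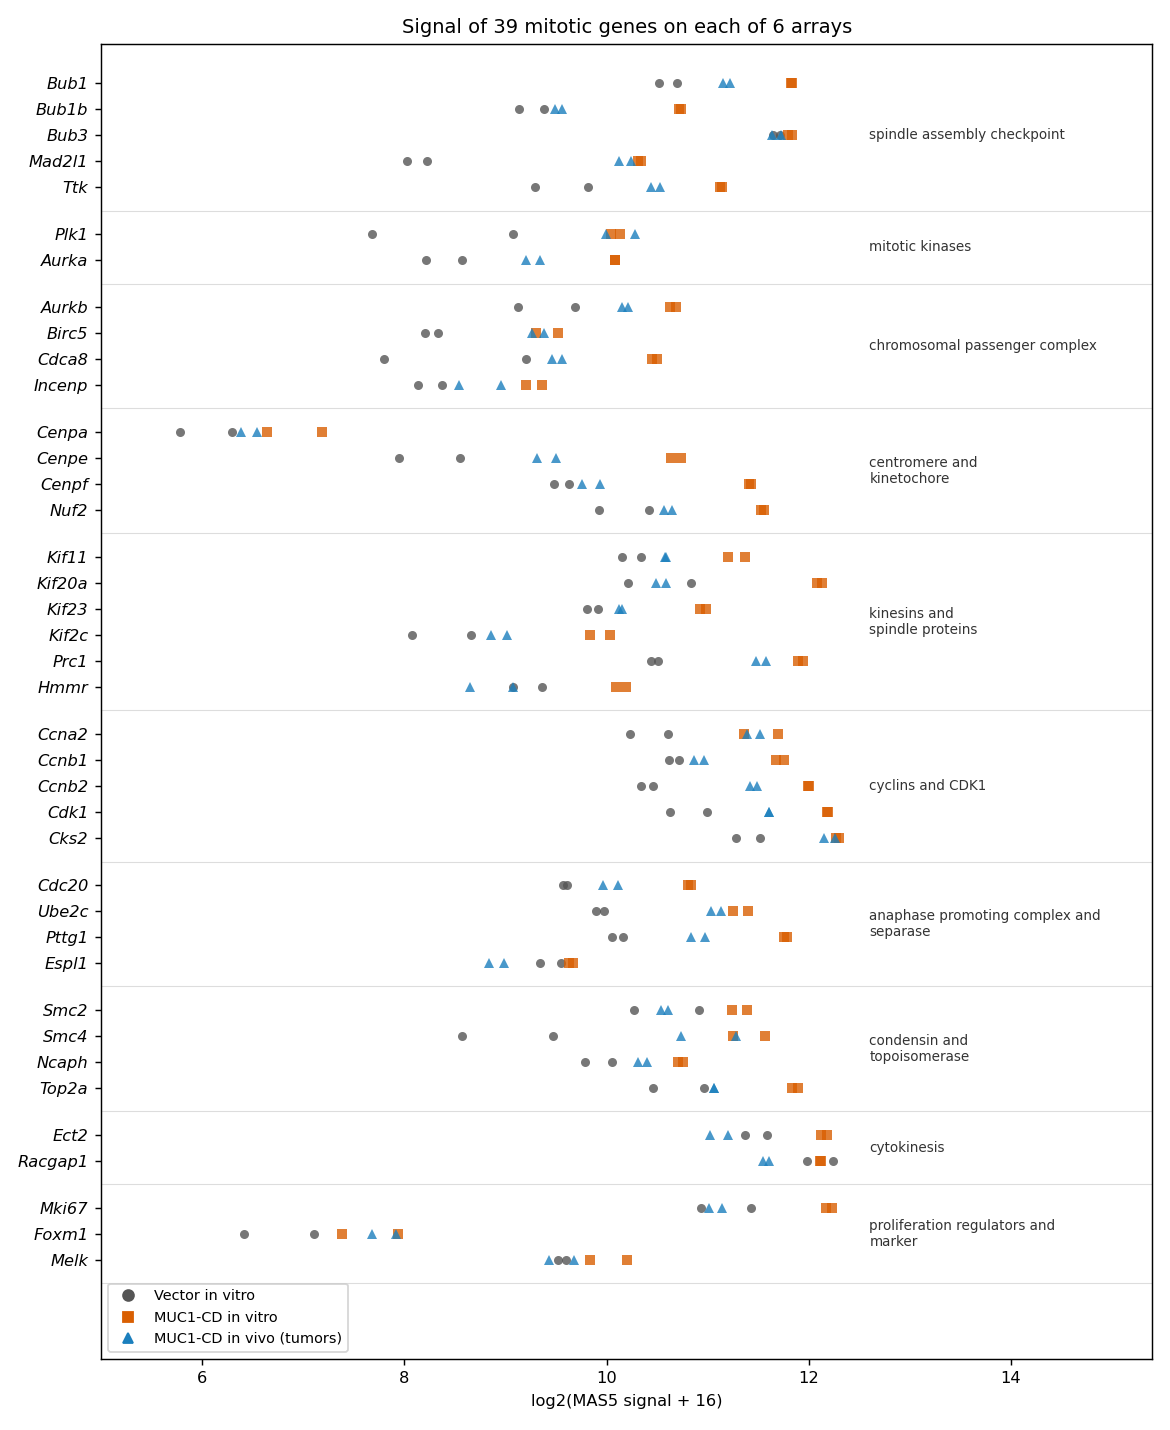
log2(MAS5 signal + 16) on the horizontal axis for each of the 39 mitotic genes (rows, grouped by role), with 1 marker per array: circles for Vector in vitro, squares for MUC1-CD in vitro and triangles for MUC1-CD in vivo. For 38 genes both squares lie to the right of both circles, and for 34 both triangles lie to the left of both squares.

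Spindle assembly checkpoint genes rose in culture for 4 of 5, with a median log2 change of 1.47, and 2 of 5 fell in tumors against culture (median -0.64). Mad2l1 encodes MAD2, the protein that sequesters the APC activator CDC20 at unattached kinetochores. Its signals were 244 and 283 in Vector, 1259 and 1278 in MUC1-CD culture and 1194 and 1096 in tumors. All 4 MUC1-CD arrays lay far above both Vector arrays, and tumors lay just below culture without overlap. The change was 2.20 ± 0.14 (SE) in culture against Vector (adjusted p = 9.73e-05), -0.15 ± 0.14 in tumors against culture (adjusted p = 0.528) and 2.06 ± 0.14 in tumors against Vector (adjusted p = 8.87e-05).

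Bub1b encodes BUBR1, the checkpoint subunit that inhibits the APC directly. Bub1b signals were 547 and 651 in Vector, 1689 and 1672 in MUC1-CD culture and 701 and 738 in tumors, so the tumor arrays came back close to the Vector arrays without overlapping them. It rose by 1.47 ± 0.14 in culture (adjusted p = 0.00037) and changed by -1.21 ± 0.14 in tumors against culture (adjusted p = 0.00264). Against Vector the tumor difference was 0.26 ± 0.14 (adjusted p = 0.157). Ttk, the kinase MPS1 that starts checkpoint signalling, gave 612 and 886 in Vector, 2207 and 2238 in MUC1-CD culture and 1462 and 1368 in tumors, 3 levels without overlap. It rose by 1.57 ± 0.18 in culture (adjusted p = 0.000817), and its difference of -0.65 ± 0.18 between tumors and culture did not pass (adjusted p = 0.059). Bub1, the kinase that recruits checkpoint proteins to kinetochores, rose by 1.22 ± 0.11 and changed by -0.64 ± 0.11 in tumors against culture (adjusted p = 0.000312 and 0.0118). Bub3, which anchors BUB1 and BUBR1 and also acts outside mitosis, stood at 3180.1 and 3353 in Vector, 3638 and 3528 in culture and 3367 and 3158 in tumors. Its differences of 0.13 in culture and -0.14 in tumors against culture did not pass (adjusted p = 0.303 and 0.394).

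Both mitotic kinases measured outside the checkpoint and passenger complex rose in culture, with a median of 1.70. Plk1, the polo-like kinase needed for centrosome maturation and mitotic entry, gave 522 and 189 in Vector, 1107 and 1041 in MUC1-CD culture and 1227 and 1005 in tumors. The Vector arrays differed from each other by more than 1 log2, and both were below all MUC1-CD arrays. Plk1 rose by 1.71 ± 0.41 in culture (adjusted p = 0.0142) and by 1.76 ± 0.41 in tumors against Vector (adjusted p = 0.0113), with no call between tumors and culture (0.05 ± 0.41, adjusted p = 0.954). Without the second Vector array the rise in culture was 1.02 and that in tumors 1.07, and the culture call was lost without either MUC1-CD culture array. Aurka, the Aurora kinase of spindle poles, gave 364 and 281 in Vector, 1067 and 1068 in culture and 633 and 572 in tumors. Its tumor arrays lay between the other groups without overlap, with 1.69 ± 0.17 in culture against Vector (adjusted p = 0.000431), -0.81 ± 0.17 in tumors against culture (adjusted p = 0.0219) and 0.88 ± 0.17 against Vector (adjusted p = 0.00504).

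All 4 chromosomal passenger complex genes, which encode the Aurora B kinase unit that corrects wrong kinetochore attachments, rose in culture (median 1.20), and by limma none was called between tumors and culture (median -0.51, with 0 higher and 3 lower at an unadjusted p under 0.05). Cdca8, encoding borealin, gave 572 and 207 in Vector, 1433 and 1383 in culture and 736 and 689 in tumors. The Vector arrays again stood far apart, and the culture arrays were the highest, without overlap with tumors. In tumors against culture Cdca8 changed by -0.97 ± 0.40, which did not pass (adjusted p = 0.157). That SE comes from a spread estimate that includes the Vector arrays. Cdca8 rose by 1.97 ± 0.40 in culture (adjusted p = 0.00778), or by 1.28 without the second Vector array, and the call was lost without either culture array. The catalytic subunit Aurkb gave 541 and 809 in Vector, 1568 and 1629 in culture and 1167 and 1122 in tumors, in 3 separate ranges. It rose by 1.25 ± 0.19 in culture (adjusted p = 0.00258) and by 0.78 ± 0.19 in tumors against Vector (adjusted p = 0.0154), a value of 0.49 without the first Vector array. Birc5, encoding survivin, rose by 1.14 ± 0.16 in culture and 1.06 ± 0.16 in tumors against Vector (adjusted p = 0.0015 and 0.00169), and differed by -0.09 between tumors and culture. Incenp, the scaffold of the complex, gave 265 and 316 in Vector, 640.3 and 575 in culture and 481 and 355 in tumors, in 3 ranges without overlap. It rose by 1.03 ± 0.20 in culture (adjusted p = 0.006), a call lost without the first culture array.

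Centromere and kinetochore genes had the lowest median change in tumors against culture of any role, -1.11, with 3 of 4 called lower, after 3 of 4 had risen in culture (median 1.62). Cenpe encodes a kinesin that carries chromosomes to the spindle equator. Its signals were 359 and 231 in Vector, 1581 and 1696 in culture and 620.4 and 709 in tumors, with no overlap between groups. Cenpe had the largest rise of the 39 in culture, 2.44 ± 0.22 (adjusted p = 0.000293), changed by -1.28 ± 0.22 in tumors against culture (adjusted p = 0.0109) and stayed above Vector by 1.16 ± 0.22 (adjusted p = 0.00458). Cenpf, a large kinetochore protein that accumulates in G2, gave 701 and 773 in Vector, 2750.5 and 2703 in culture and 851 and 960.5 in tumors. Tumor arrays were near Vector, and the culture arrays were separate from both. Cenpf rose by 1.87 ± 0.13 (adjusted p = 0.000123) and then changed by -1.58 ± 0.13 in tumors (adjusted p = 0.000686), the largest fall of the 39. Nuf2, a subunit of the NDC80 complex that binds microtubules, rose by 1.37 ± 0.17 and changed by -0.94 ± 0.17 in tumors against culture (adjusted p = 0.00108 and 0.0147). Cenpa, the histone H3 variant that marks centromeres, gave 39.0 and 62.6 in Vector, 84.0 and 129 in culture and 67.5 and 77.3 in tumors. Its difference of 0.87 ± 0.31 in culture did not pass (adjusted p = 0.0571).

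All 6 kinesins and spindle proteins measured rose in culture on the chosen probe sets (median 1.27). On these probe sets all 6 fell in tumors against culture (median -0.91), and only Prc1 was called above Vector in tumors. Further probe sets of Kif11, Kif23 and Kif2c were called above Vector in tumors (1.60, 2.45 and 0.81), and a further Hmmr probe set was not (0.15). Kif20a, the kinesin that moves the passenger complex to the central spindle, gave 1171 and 1817 in Vector, 4311 and 4462 in culture and 1523 and 1421 in tumors. The tumor arrays lay within the range of the Vector arrays. Kif20a rose by 1.58 ± 0.20 in culture (adjusted p = 0.00117), changed by -1.57 ± 0.20 in tumors against culture (adjusted p = 0.00409) and differed from Vector by 0.01 ± 0.20 in tumors (adjusted p = 0.966). Kif2c, encoding MCAK, which takes apart microtubule ends at centromeres, gave 388 and 253 in Vector, 1029.6 and 896 in culture and 448 and 501 in tumors. Culture was highest and the tumor arrays were just above Vector, with 1.57 ± 0.22 (adjusted p = 0.0017) and then -0.99 ± 0.22 (adjusted p = 0.0274).

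Hmmr, a spindle pole protein that also binds hyaluronan, gave 523 and 642 in Vector, 1156 and 1075 in culture and 386 and 524 in tumors. The first tumor array had the lowest value, the second lay just above the lower Vector array, and culture was highest. It rose by 0.93 ± 0.19 in culture (adjusted p = 0.00841), a call lost without either culture array, and changed by -1.28 ± 0.19 in tumors (adjusted p = 0.00713). Prc1, the microtubule bundler of the central spindle, rose by 1.45 ± 0.10 in culture and kept 1.05 ± 0.10 over Vector in tumors (adjusted p = 0.000139 and 0.000332), and its fall against culture was -0.40 (adjusted p = 0.0471). That fall of Prc1 did not pass without the filter (adjusted p = 0.059), with quantile normalization (0.0589), without a variance trend (0.109) or with a replicate block (0.0816). The motor Kif11, which pushes spindle poles apart, and Kif23, the motor of the centralspindlin complex, rose by 1.04 and 1.09, and changed by -0.70 and -0.82 in tumors against culture. With the mean of their probe sets the rises were 1.66 and 2.09, a further Kif23 probe set alone gave 3.09, and the Kif23 fall was no longer called (-0.73, adjusted p = 0.0768).

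All 5 measured genes of cyclins and CDK1 rose in culture (median 1.11), 3 of 5 fell in tumors against culture (median -0.54), and 4 of 5 stayed above Vector on the deposited scale. Of these 4, Ccnb2 alone stayed called with the median scale, where Ccna2 stood at 0.45, Cdk1 at 0.20 and Cks2 at 0.21 against Vector. Ccnb2 encodes a B-type cyclin of CDK1. Ccnb2 signals were 1277 and 1396 in Vector, 4049.9 and 4094 in culture and 2848 and 2729 in tumors, with tumors between the other groups. It rose by 1.60 ± 0.10 (adjusted p = 0.000104), changed by -0.54 ± 0.10 in tumors against culture (adjusted p = 0.0174) and stood 1.05 ± 0.10 above Vector in tumors (adjusted p = 0.000339). Ccnb1, the main mitotic cyclin, gave 1556 and 1664 in Vector, 3263 and 3434 in culture and 1846 and 1986 in tumors. Its tumor arrays were closer to Vector than to culture, with 1.05 ± 0.11 in culture (adjusted p = 0.000522), -0.80 ± 0.11 in tumors against culture (adjusted p = 0.00504) and 0.25 ± 0.11 against Vector (adjusted p = 0.0981). Cdk1 itself gave 2019.6 and 1571 in Vector, 4663 and 4641 in culture and 3102 and 3104 in tumors. The 3 groups did not overlap, and the changes were 1.38 ± 0.14 in culture (adjusted p = 0.00042) and -0.58 ± 0.14 in tumors against culture (adjusted p = 0.0327). Ccna2, the cyclin of S phase and G2, and Cks2, a small CDK subunit, rose by 1.11 and 0.89 in culture and by 1.04 and 0.81 in tumors against Vector. For Ccna2 and Cks2 the difference between tumors and culture was -0.07 and -0.08 (adjusted p = 0.824 and 0.681).

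Genes of the APC and separase step split in culture, where 3 of 4 rose (median 1.31) and the separase gene Espl1 was not called, and 3 of 4 fell in tumors against culture (median -0.76). Pttg1, encoding securin, the inhibitor of separase, gave 1129.6 and 1048 in Vector, 3520.0 and 3439 in culture and 1991 and 1816 in tumors. Tumors lay between Vector and culture without overlap, with 1.66 ± 0.11 in culture (adjusted p = 0.000116), -0.87 ± 0.11 in tumors against culture (adjusted p = 0.0043) and 0.80 ± 0.11 against Vector (adjusted p = 0.00146). Ube2c, the ubiquitin-conjugating enzyme of the APC, gave 936 and 989.5 in Vector, 2684 and 2426 in culture and 2231 and 2082 in tumors. All MUC1-CD arrays were above Vector, and Ube2c rose by 1.39 ± 0.12 in culture (adjusted p = 0.000247) and 1.15 ± 0.12 in tumors against Vector (adjusted p = 0.000378). Cdc20, the APC activator that the checkpoint inhibits, gave 745 and 767 in Vector, 1776 and 1814 in culture and 981 and 1090.2 in tumors. The 3 ranges were separate on this probe set, with 1.23 ± 0.12 in culture (adjusted p = 0.000449) and -0.79 ± 0.12 in tumors against culture (adjusted p = 0.00845). Espl1, the protease that opens cohesin, gave 732 and 632 in Vector, 797 and 775 in culture and 489.6 and 443 in tumors. Its tumor arrays were the lowest, -0.73 ± 0.15 against culture (adjusted p = 0.0196) and -0.53 ± 0.15 against Vector (adjusted p = 0.0221), while culture differed from Vector by 0.20 ± 0.15 (adjusted p = 0.297).

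All 4 condensin and topoisomerase genes rose in culture (median 0.98), and Top2a alone was called lower in tumors than in culture (median of the role -0.57). Smc4, a core ATPase of condensin, gave 692 and 364 in Vector, 2427 and 3022 in culture and 1692 and 2472 in tumors. The tumor range reached into the culture range, and both were far above Vector. Smc4 rose by 2.39 ± 0.32 in culture (adjusted p = 0.00138) and 1.99 ± 0.32 in tumors against Vector (adjusted p = 0.00243). Its partner Smc2 gave 1219 and 1908 in Vector, 2396 and 2660.0 in culture and 1543 and 1469 in tumors. The Vector arrays spanned the tumor arrays. Smc2 rose by 0.72 ± 0.21 in culture (adjusted p = 0.0288), or by 0.40 without the first Vector array, and the call was lost whichever single MUC1-CD array, of culture or tumors, was left out. With the median scale its rise was 0.40 (adjusted p = 0.154). Top2a, the topoisomerase that untangles sister chromatids, gave 1977 and 1389 in Vector, 3639 and 3780.0 in culture and 2117 and 2126 in tumors. Culture was separate from both other groups, with 1.15 ± 0.17 (adjusted p = 0.00208) and then -0.80 ± 0.17 (adjusted p = 0.0239). Ncaph, a regulatory subunit of condensin, rose by 0.81 ± 0.14 in culture (adjusted p = 0.0036) and by 0.44 ± 0.14 in tumors against Vector (adjusted p = 0.0352).

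The 2 cytokinesis genes measured moved least in culture, with a median of 0.34, and on the chosen probe sets both fell in tumors against culture (median -0.79) and against Vector (median -0.45). Ect2, the exchange factor that activates RHOA at the cleavage site, gave 2638 and 3069.7 in Vector, 4442 and 4617 in culture and 2059 and 2332 in tumors. Culture was highest and tumors lowest, without overlap. Ect2 rose by 0.67 ± 0.12 in culture (adjusted p = 0.00487), a call lost without the second culture array and with the median scale (0.34, adjusted p = 0.0732), then changed by -1.04 ± 0.12 in tumors against culture (adjusted p = 0.00274) and by -0.37 ± 0.12 against Vector (adjusted p = 0.0386). Racgap1, the GTPase-activating partner of KIF23 in centralspindlin, gave 4039 and 4814 in Vector, 4437 and 4418 in culture and 2974 and 3104 in tumors. Its culture arrays sat within the Vector range and its tumor arrays below both, with 0.01 ± 0.11 in culture (adjusted p = 0.971), -0.54 ± 0.11 in tumors against culture (adjusted p = 0.0226) and -0.53 ± 0.11 against Vector (adjusted p = 0.00764). Both Racgap1 falls depended on the probe set. A further Racgap1 probe set gave 646 and 373 in Vector, 747 and 723 in culture and 552 and 578 in tumors, with the tumor arrays within the Vector range. Its differences were 0.57 in culture, -0.37 in tumors against culture and 0.20 against Vector, none of them called. The mean of both Racgap1 probe sets gave -0.46 against culture (adjusted p = 0.0528) and -0.17 against Vector (adjusted p = 0.30).

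Of the proliferation regulators and the marker Mki67, only Mki67 rose in culture and fell in tumors against culture. Mki67, which encodes the Ki-67 antigen of cycling cells, gave 1936 and 2735 in Vector, 4588 and 4778 in culture and 2246 and 2049 in tumors. Tumor and Vector ranges overlapped, and culture lay above both, with 1.02 ± 0.17 (adjusted p = 0.00337) and then -1.12 ± 0.17 (adjusted p = 0.00725). Foxm1, a transcription factor for G2 and mitotic genes, gave 122 and 69.1 in Vector, 229 and 150.5 in culture and 227 and 189.7 in tumors. All MUC1-CD arrays were above Vector, the difference in culture did not pass (0.90 ± 0.31, adjusted p = 0.0511), and that in tumors against Vector did (1.05 ± 0.31, adjusted p = 0.0278). Melk, a kinase expressed in proliferating cells, gave 762 and 718 in Vector, 1165 and 896 in culture and 675 and 802 in tumors. Its tumor range spanned Vector, and neither 0.46 ± 0.17 in culture nor -0.47 ± 0.17 in tumors against culture passed (adjusted p = 0.071 and 0.124).

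**Figure D3:**
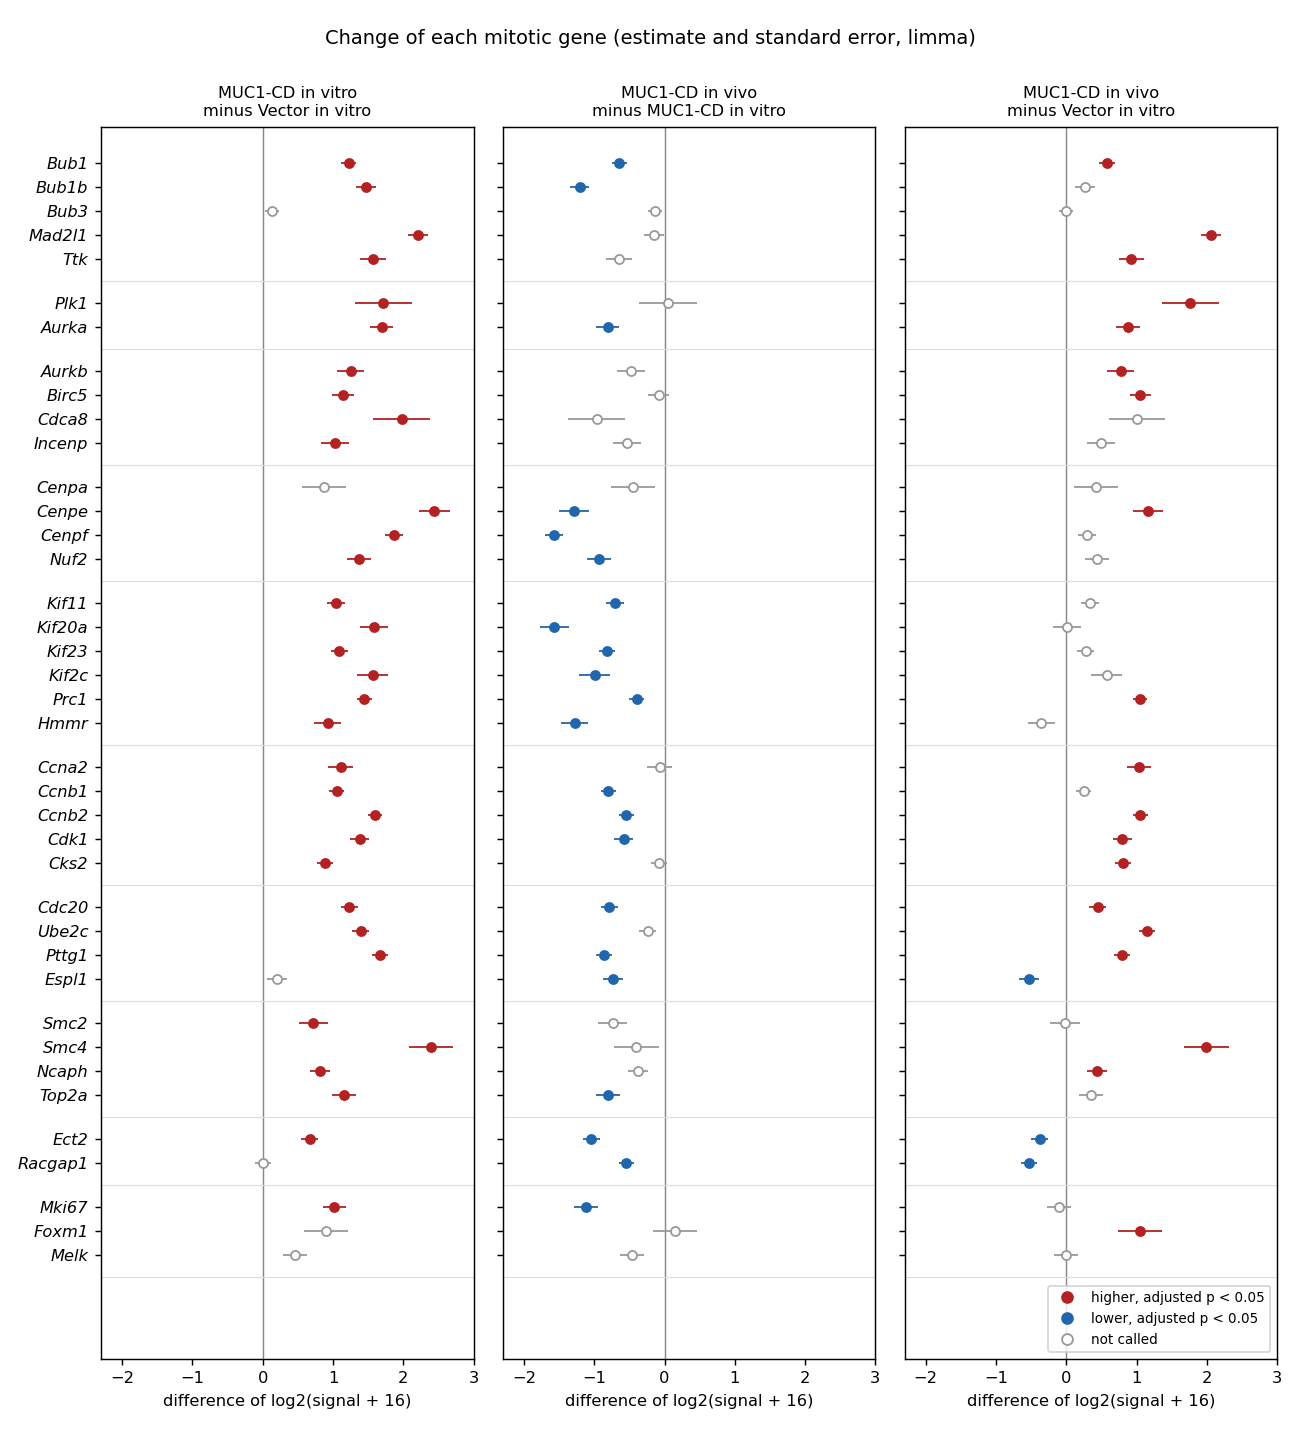
Difference of log2(signal + 16) with limma's standard error (horizontal axis) for each of the 39 mitotic genes (rows), 1 panel per comparison, with red for called higher, blue for called lower and open circles for not called at an adjusted p of 0.05. In MUC1-CD in vitro against Vector 33 points are red, in tumors against MUC1-CD in vitro 22 are blue, and in tumors against Vector 19 are red and 3 blue.

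Other probe sets of the same genes gave a partly different picture of the tumors. For 13 genes, 18 further probe sets were tested. In culture against Vector all 18 had the sign of the chosen probe set, 15 were called higher and none lower (at 21.2% of all genes called higher). Their median was 1.56, against 1.09 for the chosen probe sets of these genes. In tumors against culture 15 of 18 had the same sign, but only 2 were called lower and 1 higher, beside 8.97% and 9.83% of all genes. Their median there was -0.31 against -0.70. Against Vector in tumors 14 were called higher (at 24.8% of all genes), with a median of 1.54 against 0.35. The 3' probe sets of Gapdh and beta-actin were the brighter ones on the Vector arrays, and the part of probe position in these differences was not tested.

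Cdc20 showed the widest disagreement. A further Cdc20 probe set gave 15.9 and 62.7 in Vector, 37.8 and 48.7 in culture and 396 and 392 in tumors. It was high in tumors alone, with 2.80 in tumors against culture (adjusted p = 0.00713), opposite to the chosen Cdc20 probe set, while the other 3 gave -0.05, -0.16 and -0.20. The fall of Cdc20 in tumors was thus called on 1 of its 5 probe sets. For Smc4 a further probe set gave 501 and 599 in Vector, 1102 and 1159 in culture and 695 and 577 in tumors, so that tumors came back near Vector, with -0.82 against culture (adjusted p = 0.0188). A further Ttk probe set gave 82.6 and 60.9 in Vector, 400.5 and 479.5 in culture and 452 and 516 in tumors, with 0.13 in tumors against culture. Mad2l1 was alike on all 3 of its probe sets: the others rose by 1.99 and 1.80 in culture and differed by -0.27 and -0.18 between tumors and culture.

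**Figure D4:**
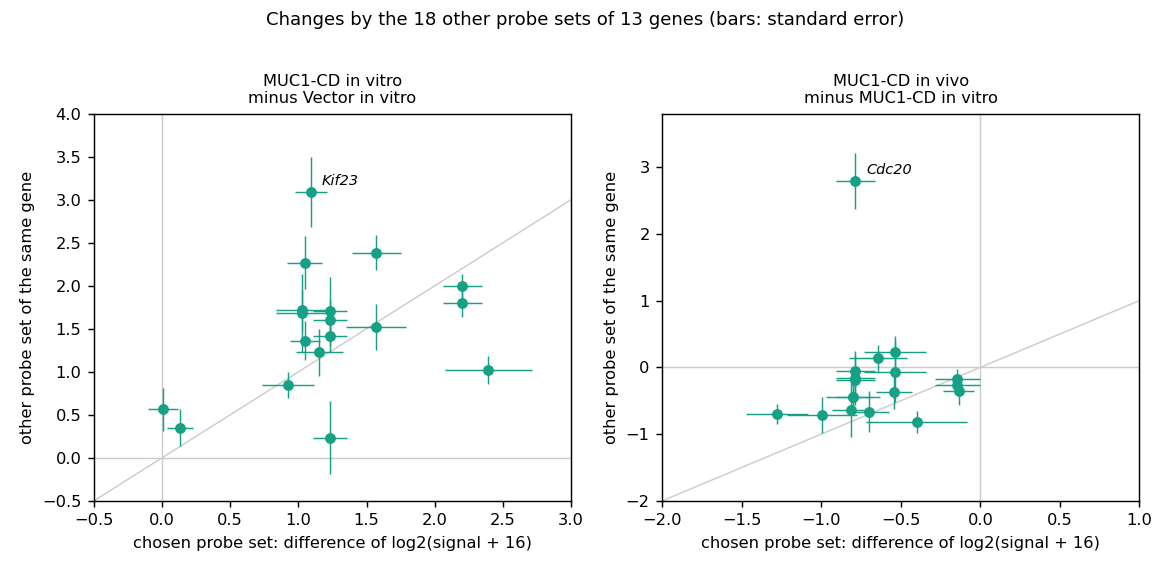
Difference of log2(signal + 16) on the chosen probe set (horizontal axis) and on each of 18 other probe sets of the same 13 genes (vertical axis), with standard errors and a line of equality. In culture against Vector (left) all 18 points lie above 0, and in tumors against culture (right) 15 lie below 0 and a Cdc20 probe set stands apart at 2.80.

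Espl1 and Racgap1 are the only members on chromosome 7 (GRCr8), a grouping chosen after values were seen. Neither was called in culture against Vector (median 0.10), while 33 of the 37 on other chromosomes rose. The 657 tested genes of chromosome 7 had a median change of -0.65, the lowest of the 20 autosomes. The part of this chromosome-wide difference in the values of Espl1 and Racgap1 was not tested.

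Other genes of mitosis, from 7 lists that exclude the 39 members, were measured for 124 of 139 names. In culture against Vector 70 rose and 15 fell (median 0.63), beside 21.2% and 24.9% of all genes. From culture to tumors 1 rose and 28 fell (median -0.30), beside 9.83% and 8.97%. Against Vector in tumors 43 were higher and 23 lower (median 0.20), beside 24.8% and 26.6%. The outer kinetochore and checkpoint list had 13 of 18 higher in culture and 7 lower in tumors against culture (medians 0.91 and -0.55). Mis12, a kinetochore scaffold subunit, rose by 2.32, Zwint by 0.86 and Sgo1, the protector of centromeric cohesin, by 1.17. In tumors against culture Zwint, Kntc1 and Dsn1 changed by -0.59, -0.73 and -0.81.

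The inner centromere list had 11 of 14 higher and 1 lower in culture (median 0.91), with Cenpi at 1.48, Cenpk at 1.13 and Cenpw at 1.54. In tumors against culture 3 of its genes fell and 1 rose (median -0.39), with Cenpt at -0.83 and Cenpn at -0.64. Cenpx, which also serves in DNA repair, went the other way, with -0.59 in culture and 0.86 in tumors against culture. Spindle and cytokinesis genes outside the 39 had 22 of 30 higher and 1 lower in culture (median 0.87) and 11 lower in tumors against culture (median -0.47). The centriole assembly gene Sass6 rose most clearly, from 93.5 and 96.3 in Vector to 852 and 851 in culture (2.97), Depdc1 by 1.92 and the kinesin Kifc1 by 1.49, and Clasp2 fell by 0.57. In tumors against culture Troap, Aspm and Spag5 changed by -1.39, -1.28 and -0.91.

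APC subunits and regulators had 4 of 17 higher and 3 lower in culture (median 0.08), shares near the 21.2% and 24.9% of all genes. Fbxo5, the APC inhibitor EMI1, rose by 1.76 and Anapc15 by 1.05, while Cdc16, Anapc1 and Anapc16 were at -0.68, -0.80 and -0.59. By limma none of the 17 was called between tumors and culture (0 higher and 3 lower at an unadjusted p under 0.05), where Anapc4, Anapc13 and Anapc2 had -0.37, -0.37 and -0.37. Cohesin and further condensin genes had 6 of 16 higher and 6 lower in culture (median 0.37) and 3 lower in tumors against culture (median -0.17). Ncapg2, a condensin II subunit, rose by 1.43. Lower in culture were the cohesin loader Mau2 (-2.27), the condensin II subunit Ncaph2 (-1.27), the cohesin releaser Wapl (-1.09), its partner Pds5a (-0.81) and the cohesin subunits Rad21 (-0.61) and Stag2 (-0.34). Rad21 and Ncaph2 lie on chromosome 7, as do Fzr1 and Troap, which were called higher (1.08 and 0.62). Mau2, Wapl and Cdc16 lie on chromosome 16, whose 292 tested genes had a median of -0.35, as does Cenpu, which was called higher (0.92). In tumors against culture Ncapd2, Smc3 and Pds5b changed by -0.72, -0.37 and -0.48.

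Mitotic entry genes outside the 39 had 7 of 12 higher and 1 lower in culture (median 0.49) and 3 lower in tumors against culture (median 0.03). Of all genes, 21.2% were called higher and 24.9% lower in culture, and 8.97% lower in tumors against culture. Ccnf, Cdca2 and Cdca3 rose by 1.78, 1.69 and 1.51, the phosphatase gene Ppp1cc fell by 0.32, and Cdca2, Cdca3 and Cks1b changed by -0.89, -0.66 and -0.40 in tumors against culture. Regulators of the E2F, MYB and RB families had 7 of 17 higher and 3 lower in culture (median 0.24), and only Rb1, the retinoblastoma gene, was called lower in tumors against culture (-1.27). Against Vector, 4 of the 17 were called lower in tumors, a share near the 26.6% of all genes, and Rb1 was not among them (-0.13). Mybl2, the B-MYB partner of the MuvB complex at mitotic promoters, rose by 1.30, while Lin52, Tfdp2 and Rbl2 were at -1.17, -1.23 and -0.82. E2f7 and Lin9 differed by -0.61 and -0.62 between tumors and culture without a call.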

How the data were processed

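The deposited values are signal intensity values on a linear scale, 1 per probe set and array, which the submitters' processing notes credit to MAS5. Its version and any filtering by the authors are not stated in the labels or headers. The 2% trimmed mean was the same on all 6 arrays, and this scale was kept. The table held 31042 probe sets other than controls. A single gene was named for 20826 of them, several genes for 436, and 9780 were absent from the annotation used. Symbols were updated through Entrez identifiers to GRCr8.

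Signals were transformed as log2(signal + 16), and 18625 probe sets passed a filter on the mean signal (40th percentile, 61.6). One limma model (3.58.1, R 4.3.3; lmFit on 3 group means, eBayes with trend) took all arrays, with 3 residual degrees of freedom and a median of 3.70 prior. P values are 2-sided and adjusted by Benjamini-Hochberg over all kept probe sets. A gene was represented by its probe set with the highest mean. The number of arrays limits precision, and p values measure the spread between these arrays, with 1 estimate shared by all groups although Vector varied more. The code was tested on simulated data.

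The members and gene lists were chosen with earlier results of these data known. Array values are given for the 2 members of each role that changed most in each of the first 2 comparisons. They are also given for any called against the direction of most members and for some others. The lists cover outer kinetochore, inner centromere, spindle and cytokinesis, APC, cohesin and condensin, mitotic entry, and E2F, MYB and RB genes, beside markers of fibroblasts, macrophages, endothelium, muscle and lymphoid cells. From each mitotic list, up to 3 genes with the smallest p in each of these comparisons and those called against most members are named. Alternatives were other pseudocounts, filters, scalings, variance models, probe set choices, a replicate block and leaving out each array. Replicate numbers were not used to pair samples, since the labels give no shared animal, day or batch for a number. Differences between replicates correlated at -0.02, -0.04 and -0.03 between groups, which cannot show whether samples were paired.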

Additional observations from a re-analysis of the deposited data

How the results depend on the processing

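In MUC1-CD in vitro against Vector, 28 to 35 members were called higher and 0 lower under every alternative tried. The median of 1.22 became 1.18 with a pseudocount of 64, 0.90 with each array divided by its median signal and 1.37 with the mean of all probe sets of a gene, and it lay between 1.14 and 1.25 when 1 array was left out. In tumors against MUC1-CD in vitro, the number called lower was 2 to 30 when 1 array was left out, with a median between -0.72 and -0.65. The number of all genes called lower also fell when 1 MUC1-CD array was left out and grew when 1 Vector array was. The median of the members was -0.70 with a filter at the 60th percentile and -0.91 with median scaling. In tumors against Vector, the median of 0.49 became 0.44 with a pseudocount of 64 and 0.79 with the mean of all probe sets. With median scaling it was -0.045, with 7 members higher and 10 lower, beside 1225 and 5408 of all 10035 genes. In tumors against Vector 1 member was called lower with array weights per group and 1 when the fit held only both groups compared. Leaving out 1 array gave 12 to 28 higher, 0 to 7 lower and a median of 0.49 to 0.61. Over all genes, the numbers called higher and lower in tumors against Vector fell without 1 MUC1-CD array and grew without 1 Vector array. With the replicate number as a block, 35 members were higher in culture and 21 lower in tumors against culture. With this block 19 members were higher and 3 lower in tumors against Vector. The pairing by number thus changed no count by over 1.5 times. Estimates of single genes changed sign as follows. Median scaling gave Racgap1 -0.32 in culture against Vector, Plk1 -0.22 and Foxm1 -0.10 in tumors against culture, and in tumors against Vector Bub1 -0.013, Ncaph -0.15, Bub1b -0.32, Incenp -0.078, Cenpf -0.29, Kif20a -0.58, Kif2c -0.000824, Ccnb1 -0.34, Cdc20 -0.14 and Top2a -0.24. Quantile normalization gave Foxm1 -0.019 in tumors against culture and Smc2 0.057 in tumors against Vector. The mean of probe sets gave Cdc20 0.32 in tumors against culture. When 1 array was left out, Racgap1 in culture against Vector ranged from -0.12 (without the first Vector array) to 0.13. In tumors against culture Plk1 ranged from -0.094 (without the first tumor array) to 0.19 and Foxm1 from -0.13 (without the second culture array) to 0.42. In tumors against Vector Kif20a ranged from -0.30 (without the first Vector array) to 0.33, Melk from -0.13 to 0.11 (without the first tumor array), Smc2 from -0.34 to 0.30 and Mki67 from -0.35 to 0.15 (the last 2 highest without the second Vector array). Of these single-gene differences, those of Cdc20, Bub1 and Ncaph passed on the deposited scale and the others did not. The cause of these changes was not tested.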
